A study of Mus musculus with 8 samples.

Results

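Supporting cells surround the hair cells of the organ of Corti, the sensory epithelium of the cochlea, and hold them in place. They include the pillar cells, which frame the tunnel between inner and outer hair cells, the Deiters cells under the outer hair cells, and the border and inner phalangeal cells around the inner hair cells. They clear transmitter and potassium, build part of the matrix above the epithelium, and share many genes with glia of the nervous system. The 8 genes described here are used as markers of these cells: the transcription factor genes Sox2, Prox1 and Rorb, the transporter gene Slc1a3, the lipid carrier gene Fabp3, and Npy, Matn4 and Emid1, whose products are secreted. They are a list of gene names fixed with earlier results of these data known, though no measured value enters the rule, and all 8 were found among the 78317 genes of the expression table and among the 17811 with a mean of at least 1 TPM (transcripts per 1000000).

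The samples were RNA of the cochlear basilar membrane, the sheet that carries the hair cells and supporting cells, from mice at postnatal day 6, in 4 homo and 4 hete libraries. Homo libraries carry the genotype label Dnajc17 cKO, and hete libraries carry the label WT although their name points to a heterozygote, so an allele in the control animals cannot be told from the labels. The promoter or Cre that drives the deletion, the deleted exons, the strain, the sex and any pooling of animals were not found in the labels or series text. Whether every library is a different animal is not stated, and the tests therefore see only how much these libraries vary, which could be technical variation. Because the whole sheet was sampled, fewer cells of a type and less RNA per cell cannot be told apart.

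The targeted gene Dnajc17, which encodes a J-domain protein, stood at 18.04 to 31.08 TPM in homo libraries and 22.06 to 26.51 TPM in hete libraries, so the gene-level value does not separate the groups and does not check the labels. Hair cell markers were present, among them Pou4f3, a hair cell transcription factor picked after its values were seen, at 12.65 to 18.15 TPM in homo and 15.17 to 20.37 TPM in hete libraries. TPM keeps no record of read numbers, so the depth of a library is unknown here. With limma-trend, 2 of 17811 tested genes changed (0.0112%), 1 higher (0.00561%) and 1 lower (0.00561%) in homo, and neither was a member. Homo and hete libraries overlapped on both leading principal components, of 16.9% and 16.5% of the variance. Among markers of other cell types, 10 of 11 tested spiral ganglion neuron genes stood higher in homo (median log2 fold change 0.16). Of greater epithelial ridge genes 7 of 8 stood higher (0.27), and of hair cell genes 9 of 11 stood lower (-0.15). In the other lists 8 of 11 glia, 3 of 3 muscle, 3 of 4 lymphatic endothelial and 6 of 10 mesenchyme genes stood higher. For cartilage 2 of 7 and for blood 2 of 8 stood higher. Over all tested genes 56.3% stood higher, with a median of 0.02, and no gene of these lists passed the adjusted threshold.

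None of the 8 supporting cell genes passed the test between homo and hete libraries. On the TPM + 1 scale the lowest and highest bounds of their 95% intervals were 0.70-fold for Fabp3 and 1.73-fold for Npy. For low genes this scale narrows the interval. With a pseudocount of 0.1 the log2 value of Rorb was -0.08 with SE 0.27, against -0.06 with SE 0.20. With limma-trend 0 of 8 passed an adjusted p of 0.05 over all tested genes, and 0 of 8 passed an unadjusted p of 0.05, which 6.05% of tested genes did. The exact permutation test over libraries gave 0 of 8 unadjusted p under 0.05 as well. In no member did the groups fail to overlap, against 3.99% of tested genes. Of the 8 members 6 stood higher in homo, with a median log2 fold change of 0.06 and only Npy past 0.3 in size, beside 56.3% of all tested genes higher and a median of 0.02 over them; 89.5% of tested genes lay under 0.3 in size.

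All 8 genes were read in every library, from 1.68 to 113.49 TPM. TPM is scaled per transcript length, so levels can be set side by side between genes. Npy, Matn4, Slc1a3, Emid1, Sox2 and Fabp3 had means of 87.1, 84.2, 74.1, 63.3, 49.98 and 45.2 TPM over the 8 libraries, while Prox1 and Rorb had 3.83 and 2.48 TPM. The step from Fabp3 to Prox1 was the only one in that order where the ranges did not overlap. Npy exceeded Matn4 in 4 of 8 libraries, Matn4 exceeded Slc1a3 in 4, and Sox2 exceeded Fabp3 in 5, so the order within these pairs is not beyond the spread between libraries. Slc1a3 exceeded Emid1 in 7 libraries, Emid1 exceeded Sox2 in 8, and Prox1 exceeded Rorb in 7.

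**Figure D1:**
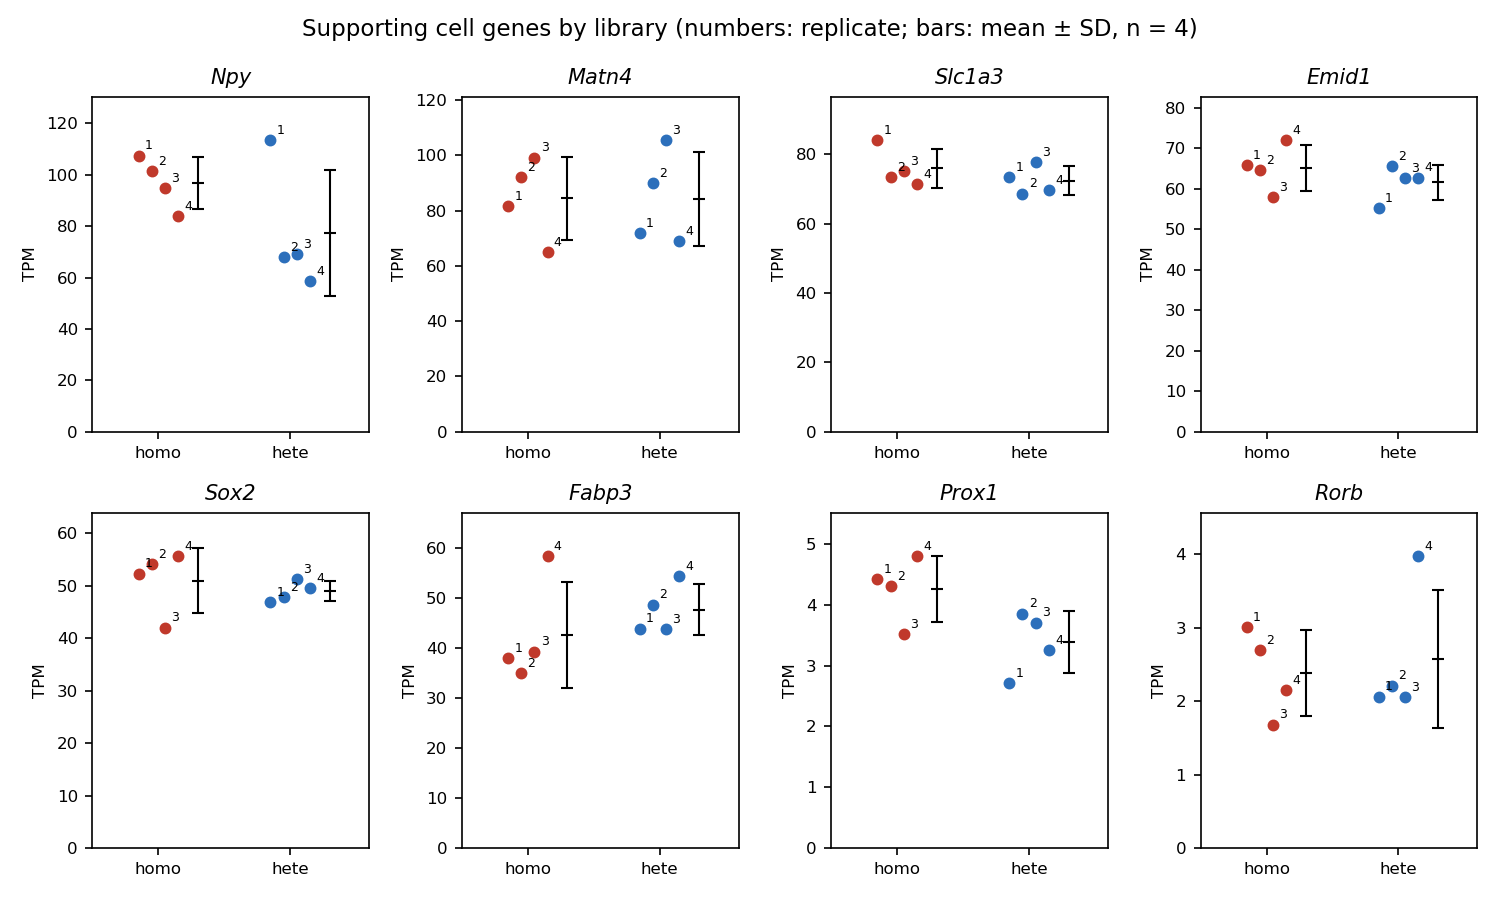
TPM (vertical axes, from 0) of each supporting cell gene in the 4 homo and 4 hete libraries; each point is a library with its replicate number, and the bars are the mean and SD of a group. The groups overlap in all 8 panels; Npy in hete replicate 1 (113.49 TPM) and Rorb in hete replicate 4 (3.97 TPM) lie away from the other hete points.

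The promoters of Sox2, Prox1 and Emid1 are shown because the levels of these genes had the 3 highest correlations between members across the libraries, described below. The sequences are RefSeq windows of build GRCm38.p6, 250 bases before to 50 after an annotated start, written 5′ to 3′ on the strand of the gene. They lie at chr3:34649745-34650044 (plus strand) for Sox2, chr1:190170778-190171077 and chr1:190169466-190169765 (minus strand) for Prox1, and chr11:5152181-5152480 and chr11:5150025-5150324 (minus strand) for Emid1. Capitals mark the SOX core motifs ACAAAG and ACAATG, the TATA box TATAAA and the CCAAT box CCAAT, each on either strand.
Sox2: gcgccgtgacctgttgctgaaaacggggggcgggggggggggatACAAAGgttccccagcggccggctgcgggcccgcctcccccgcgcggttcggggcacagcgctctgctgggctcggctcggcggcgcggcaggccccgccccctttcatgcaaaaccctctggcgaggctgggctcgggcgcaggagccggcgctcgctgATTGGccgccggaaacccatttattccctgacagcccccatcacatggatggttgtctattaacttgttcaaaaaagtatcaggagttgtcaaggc
Prox1, first start: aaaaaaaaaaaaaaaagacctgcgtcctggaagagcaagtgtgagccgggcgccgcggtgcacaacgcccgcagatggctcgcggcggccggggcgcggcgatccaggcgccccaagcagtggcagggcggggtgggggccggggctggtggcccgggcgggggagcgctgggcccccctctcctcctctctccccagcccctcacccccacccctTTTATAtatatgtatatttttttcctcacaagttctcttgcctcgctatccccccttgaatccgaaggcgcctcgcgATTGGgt
Prox1, other start: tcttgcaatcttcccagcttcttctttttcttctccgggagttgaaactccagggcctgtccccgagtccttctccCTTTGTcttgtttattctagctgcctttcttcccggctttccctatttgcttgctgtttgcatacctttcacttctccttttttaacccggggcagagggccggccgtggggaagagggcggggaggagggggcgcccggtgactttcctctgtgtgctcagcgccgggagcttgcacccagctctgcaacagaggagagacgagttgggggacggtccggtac
Emid1, first start: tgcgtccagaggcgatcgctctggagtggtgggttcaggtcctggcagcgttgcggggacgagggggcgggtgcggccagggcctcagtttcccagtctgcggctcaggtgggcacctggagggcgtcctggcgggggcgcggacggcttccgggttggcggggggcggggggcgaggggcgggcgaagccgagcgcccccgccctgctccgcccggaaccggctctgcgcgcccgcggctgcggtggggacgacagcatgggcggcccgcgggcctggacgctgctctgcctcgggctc
Emid1, other start: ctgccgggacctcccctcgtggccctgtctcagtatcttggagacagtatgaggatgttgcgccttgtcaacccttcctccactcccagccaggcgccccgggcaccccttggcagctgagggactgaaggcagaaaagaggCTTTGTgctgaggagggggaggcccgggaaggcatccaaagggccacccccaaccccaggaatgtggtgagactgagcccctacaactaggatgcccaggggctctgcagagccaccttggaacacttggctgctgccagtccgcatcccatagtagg

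The motif ACAAAG, a core that SOX proteins bind, was in the Sox2 window and in the other-start windows of Prox1 and Emid1. These are 3 of the 12 windows of the members, and 18.7% of all 32851 windows of this length hold it. ACAATG was in none of the 12 windows, beside 12.6% of all windows. TATAAA was found on the opposite strand in the first-start window of Prox1, 34 bases before the start, and in the window of Slc1a3, beside 13.6% of all windows. CCAAT was in the windows of Sox2, Slc1a3 and Npy, both windows of Matn4 and the first-start windows of Prox1 and Rorb, beside 37.4% of all windows. The GC box GGGCGG, left in lower case here, is held at least once by 35.7% of all windows. Among the 12 windows of the members it was absent from 4. These were the Fabp3 window, the first-start window of Matn4 and the other-start windows of Rorb and Emid1. The first-start window of Emid1 held 6 copies, and its GC content was 77.3%, beside a median of 52.7% over all windows. That was the highest of the 12 windows, and the lowest was 41.0%, in the other-start window of Rorb. A match is a string of letters and not a bound site, and the motifs were searched after the levels were known.

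Among the transcription factors, Sox2 gave the most even values in hete libraries. Sox2 (ENSMUSG00000074637, chromosome 3), an HMG-box factor needed to set up the sensory patch and kept by supporting cells after hair cells have formed, had 52.35, 54.11, 42.01 and 55.61 TPM in homo replicates 1 to 4, against 46.95, 47.90, 51.29 and 49.59 TPM in hete replicates 1 to 4. Homo replicate 3 was the lowest of all 8 libraries and the other 3 homo libraries were above every hete library. The log2 difference, homo minus hete, was 0.05, with a 95% interval of -0.15 to 0.25 (SE 0.09; adjusted p = 0.956 by limma-trend), and without homo replicate 3 it was 0.14. Sox2 lies inside the long non-coding gene Sox2ot on the same strand, so reads of the overlap may not be separable. Sox2ot had 3.79, 4.18, 3.16 and 5.48 TPM in homo libraries, against 2.42, 3.43, 2.49 and 5.45 TPM in hete libraries (log2 change 0.24 with SE 0.22; adjusted p = 0.907 by limma-trend).

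Prox1 had the smallest p of the members. Prox1 (ENSMUSG00000010175, chromosome 1), a homeobox factor found in pillar and Deiters cells, and outside them in lymphatic endothelium and spiral ganglion neurons, had 4.43, 4.31, 3.52 and 4.80 TPM in homo libraries, against 2.72, 3.86, 3.71 and 3.26 TPM in hete libraries. Homo replicate 3 was the 1 homo library below the highest hete values, and hete replicate 1 was the lowest of the 8. The fitted log2 difference was 0.26, with a 95% interval of -0.03 to 0.56 (SE 0.13; adjusted p = 0.869 by limma-trend), a fold between 0.979 and 1.48 on the TPM + 1 scale. In the two-sided exact permutation test p was 0.0857 before adjustment, where the smallest p that 4 against 4 libraries can give is 0.0286. Leaving out homo replicate 3 gave 0.34 on the log2 scale, and leaving out hete replicate 1 gave 0.19. The antisense gene Prox1os had 0.80, 2.41, 1.90 and 2.95 TPM in homo libraries, against 2.10, 1.29, 2.44 and 1.62 TPM in hete libraries, a log2 change of 0.03 with SE 0.25 whose sign turned with single libraries left out. The library kit was stranded per the labels, but the labels do not say whether the counting used strand, so reads of the pair may not be separable.

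Rorb (ENSMUSG00000036192, chromosome 19), an orphan nuclear receptor, had 3.01, 2.69, 1.68 and 2.15 TPM in homo libraries, against 2.06, 2.21, 2.05 and 3.97 TPM in hete libraries. Hete replicate 4 was the highest of all 8, and the other 3 hete libraries lay between 2.05 and 2.21 TPM. Homo over hete, the log2 value was -0.06, with a 95% interval of -0.51 to 0.39 (SE 0.20; adjusted p = 0.979 by limma-trend), and it was 0.11 without hete replicate 4 and 0.04 without homo replicate 3, so its direction rests on single libraries.

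Slc1a3 had the narrowest interval of the 8 genes, and the size of the Fabp3 value depended on homo replicate 4. Slc1a3 (ENSMUSG00000005360, chromosome 15) encodes GLAST, the glutamate and aspartate transporter with which inner phalangeal and border cells, like glia, take up transmitter. It had 84.04, 73.32, 75.12 and 71.30 TPM in homo libraries, against 73.37, 68.61, 77.78 and 69.55 TPM in hete libraries. Homo replicate 1 was the highest library and the others of both groups were mixed. The fitted log2 difference was 0.07, with a 95% interval of -0.09 to 0.23 (SE 0.07; adjusted p = 0.918 by limma-trend), an interval of 0.941-fold to 1.17-fold, and 0.02 without homo replicate 1. Fabp3 (ENSMUSG00000028773, chromosome 4), a cytosolic fatty acid binding protein best known from heart, had 38.02, 35.00, 39.29 and 58.33 TPM in homo libraries, against 43.87, 48.67, 43.82 and 54.46 TPM in hete libraries. Homo replicates 1 to 3 were below every hete library and homo replicate 4 was above all of them. Homo over hete, the log2 value was -0.18, with a 95% interval of -0.51 to 0.15 (SE 0.15; adjusted p = 0.901 by limma-trend). Without homo replicate 4 it was -0.34 (adjusted p = 0.705 by limma-trend), and without homo replicate 2 it was -0.10. The processed pseudogene Fabp3-ps1, named after its values were seen, was at 1.66 TPM in homo replicate 1 and 0.89 TPM in hete replicate 3 and listed at 0 in the other 6 libraries.

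Npy had the largest difference in group means among the secreted products. Npy (ENSMUSG00000029819, chromosome 6) encodes the precursor of neuropeptide Y, a peptide that is also made by many neurons. It had 107.47, 101.37, 94.73 and 84.00 TPM in homo libraries, against 113.49, 68.03, 69.19 and 58.50 TPM in hete libraries. Hete replicate 1 was the highest of all 8, and the other 3 hete libraries were below every homo library. The means were 96.9 ± 10.05 TPM in homo and 77.3 ± 24.6 TPM in hete libraries (SD, n = 4 each), and the fitted log2 difference was 0.36, with a 95% interval of -0.06 to 0.79 (SE 0.19; adjusted p = 0.87 by limma-trend). Without hete replicate 1 it was 0.56 (adjusted p = 0.406 by limma-trend), the lowest adjusted p of any member under any alternative, and without hete replicate 4 it was 0.25.

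Matn4 and Emid1 belong to the extracellular matrix. Matn4 (ENSMUSG00000016995) encodes matrilin 4, an adaptor protein of matrix filaments, and lies on chromosome 2, as Dnajc17 does. It had 81.60, 92.00, 99.15 and 64.85 TPM in homo libraries, against 71.95, 89.92, 105.43 and 69.05 TPM in hete libraries. The range was as wide within each group as between them, with replicate 4 lowest in both. On the log2 scale the difference was 0.01, with a 95% interval of -0.36 to 0.38 (SE 0.16; adjusted p = 0.998 by limma-trend), and its sign turned with quantile normalization (-0.02) and without homo replicates 2 or 3 or hete replicates 1 or 4 (-0.04, -0.07, -0.06 and -0.08). Emid1 (ENSMUSG00000034164, chromosome 11) encodes a secreted protein with an EMI domain and a collagen stretch. It had 65.77, 64.53, 57.93 and 71.94 TPM in homo libraries, against 55.25, 65.56, 62.62 and 62.72 TPM in hete libraries. Homo replicate 3 and hete replicate 1 were the lowest, and homo replicate 4 was the highest. The fitted log2 difference was 0.08, with a 95% interval of -0.10 to 0.26 (SE 0.08; adjusted p = 0.919 by limma-trend), or 0.03 without hete replicate 1.

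**Figure D2:**
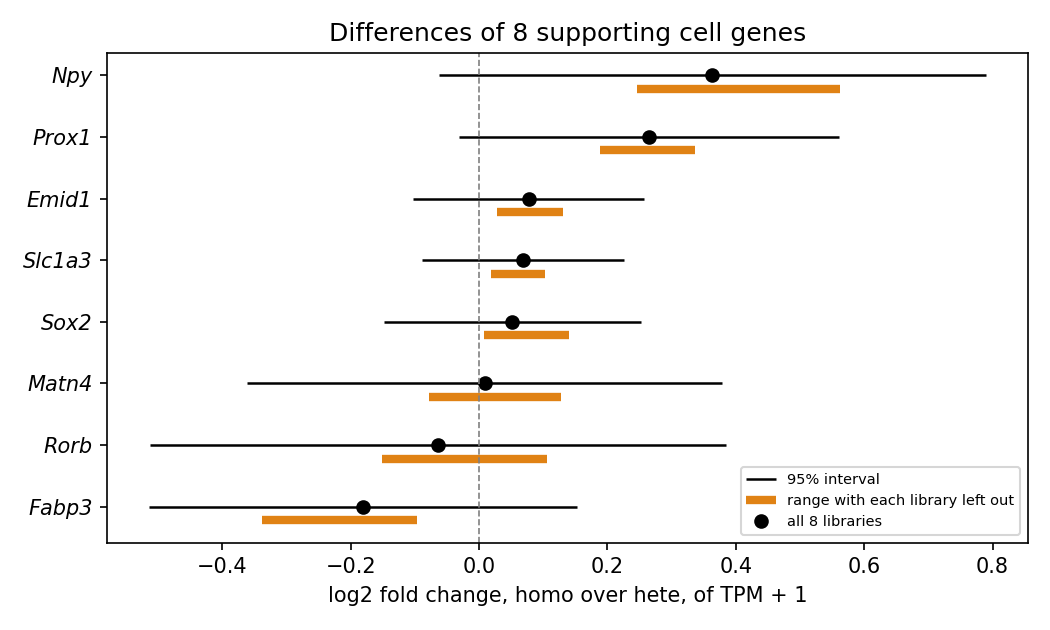
Log2 fold change of TPM + 1, homo over hete (horizontal axis), of the 8 genes (vertical axis); points are the fit with all 8 libraries, black lines its 95% interval, and orange bars the range when each library is left out in turn. Every interval includes 0; the orange bars of Matn4 (-0.08 to 0.13) and Rorb (-0.15 to 0.11) cross it, and that of Npy (0.25 to 0.56) is the farthest from it.

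The members differed in how much they varied between libraries of the same group. The residual SD of log2(TPM + 1) was 0.09 for Slc1a3, at percentile 14.3 of all tested genes, and 0.12 for Emid1, at percentile 26.7. It was 0.31 for Npy and 0.30 for Rorb, at percentiles 81.9 and 81.2. In level, Npy and Matn4 stood at percentiles 90.6 and 90.2 of tested genes, and Rorb at 17.5.

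Sox2, Prox1 and Emid1 had the highest correlations between members across the libraries. Of 28 pairs, 15 had a positive and 13 a negative Pearson's r, and none passed an adjusted p of 0.05 in the exact permutation test over pairings, for Pearson's r or Spearman's rho; 2 had an unadjusted p under 0.05 for Pearson's r. Prox1 and Emid1 had r = 0.89 (exact permutation p = 0.0034, adjusted over 28 pairs 0.0951) and rho = 0.905 (p = 0.00456, adjusted 0.128) over 8 libraries. Leaving out the 2 libraries with the most extreme Prox1 values gave r = 0.63, and deviations from the group means gave 0.946. Sox2 and Emid1 had r = 0.768 (exact permutation p = 0.0281, adjusted 0.394) and rho = 0.762 (p = 0.0368, adjusted 0.343), with r = 0.598 after leaving out the libraries with the 2 most extreme Sox2 values. Sox2 and Prox1 had r = 0.667 (exact permutation p = 0.0692, adjusted 0.487) and rho = 0.81 (p = 0.0218, adjusted 0.305), with r = 0.795 after the same step. Homo replicate 3 was the lowest homo library for all 3 genes and homo replicate 4 the highest, and hete replicate 1 was the lowest hete library for all 3. Fabp3 and Matn4 stood at the other end, with r = -0.646 (exact permutation p = 0.09, adjusted 0.487; rho = -0.667, p = 0.0831, adjusted 0.539; r = -0.443 without 2 libraries).

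Markers of glia and of neurons, which lie in or next to the sampled sheet, correlated with Emid1 past the adjusted threshold for Pearson's r but not for Spearman's rho. Prox1 passed it with neither list. These relations were examined after the data were seen: each member was set against the mean log2(TPM + 1) of 9 lists of markers of other cell types, with genes that supporting cells share left out, which gave 72 relations. Of these, 3 passed an adjusted p of 0.05 for Pearson's r and 0 for Spearman's rho in the exact permutation test, with 9 at an unadjusted p under 0.05 for r. Emid1 had r = 0.953 with 8 Schwann cell and satellite glia markers (exact permutation p = 0.000248, adjusted over 72 relations 0.0179) and rho = 0.929 (p = 0.00223, adjusted 0.0804), and r = 0.842 without the 2 libraries farthest from the median of the list. With 10 spiral ganglion neuron markers Emid1 had r = 0.937 (exact permutation p = 0.00166, adjusted 0.0399), rho = 0.762 (p = 0.0368, adjusted 0.265) and r = 0.729 without 2 libraries. Prox1 had r = 0.85 with the glia markers (exact permutation p = 0.00781, adjusted 0.141; rho = 0.905, p = 0.00456, adjusted 0.11; r = 0.763 without 2 libraries). With the neuron markers Prox1 had r = 0.842 (exact permutation p = 0.0102, adjusted 0.147; rho = 0.762, p = 0.0368, adjusted 0.265), and r = 0.453 without the 2 libraries farthest from the median of the list. Deviations from the group means gave 0.953 for Emid1 and 0.949 for Prox1 with glia, and 0.934 for Emid1 and 0.926 for Prox1 with neurons. Leaving out 1 library at a time kept r between 0.924 and 0.974 for Emid1 with glia and between 0.888 and 0.96 for Emid1 with neurons. It kept r between 0.744 and 0.902 for Prox1 with glia and between 0.717 and 0.905 for Prox1 with neurons.

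The glia list level was 5.30 to 6.07 in homo libraries and 5.21 to 5.82 in hete libraries on the log2(TPM + 1) scale, and the neuron list level 4.64 to 5.45 in homo and 4.36 to 5.11 in hete libraries. All 11 listed glia markers and all 11 listed neuron markers passed the mean of 1 TPM, and summed over all listed genes the glia markers held 1613 to 2524 TPM in homo and 1652 to 2269 TPM in hete libraries. The neuron markers held 440 to 702 TPM in homo and 379 to 566 TPM in hete libraries. Sox2 and Slc1a3 are also known from satellite glia. Sox2 had r = 0.76 with the glia list (exact permutation p = 0.0275, adjusted 0.283; rho = 0.738, p = 0.0458, adjusted 0.3; r = 0.418 without 2 libraries), and Slc1a3 had r = 0.13 (exact permutation p = 0.761, adjusted 0.882; rho = -0.0476, p = 0.935, adjusted 0.948; r = 0.301 without 2 libraries). Prox1 had r = 0.732 with 4 lymphatic endothelial markers (exact permutation p = 0.0402, adjusted 0.321; rho = 0.833, p = 0.0154, adjusted 0.265; r = 0.936 without 2 libraries), and deviations from the group means gave 0.483. These markers summed over 6 listed genes to 88.88 to 116.29 TPM in homo and 85.73 to 105.45 TPM in hete libraries. Most of that sum was Pdpn, at 78.83 to 107.85 TPM in homo and 78.70 to 95.84 TPM in hete libraries. Lyve1, Reln and Flt4, the other tested genes of the list, had means of 3.82, 2.06 and 1.70 TPM over the 8 libraries. The part of glia, neuron and lymphatic RNA in the levels of Emid1, Prox1, Sox2 and Slc1a3 was not tested.

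**Figure D3:**
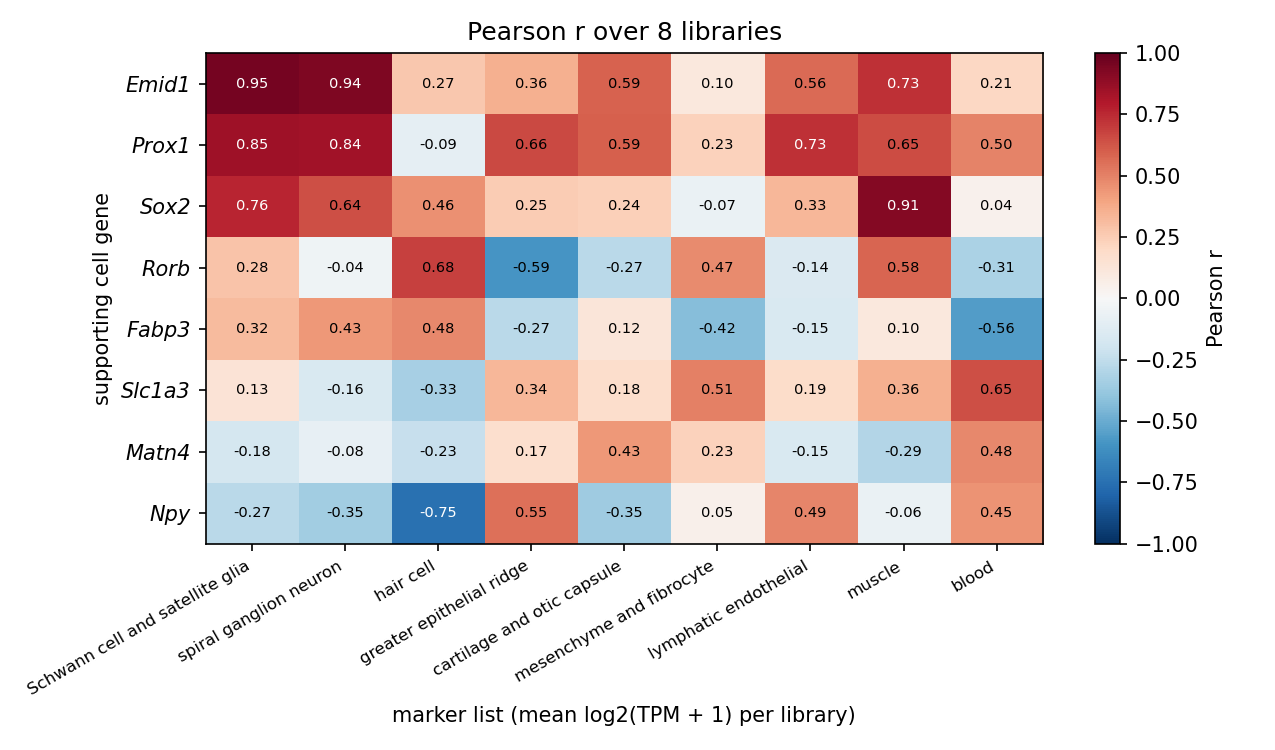
Pearson's r over the 8 libraries between each supporting cell gene (rows) and the mean log2(TPM + 1) of each marker list of another cell type (columns), with the value printed in each cell and the colour running from -1 to 1. Emid1 and Prox1 have their highest values, 0.95 and 0.85, with Schwann cell and satellite glia markers; Npy has -0.75 with hair cell markers.

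**Figure D4:**
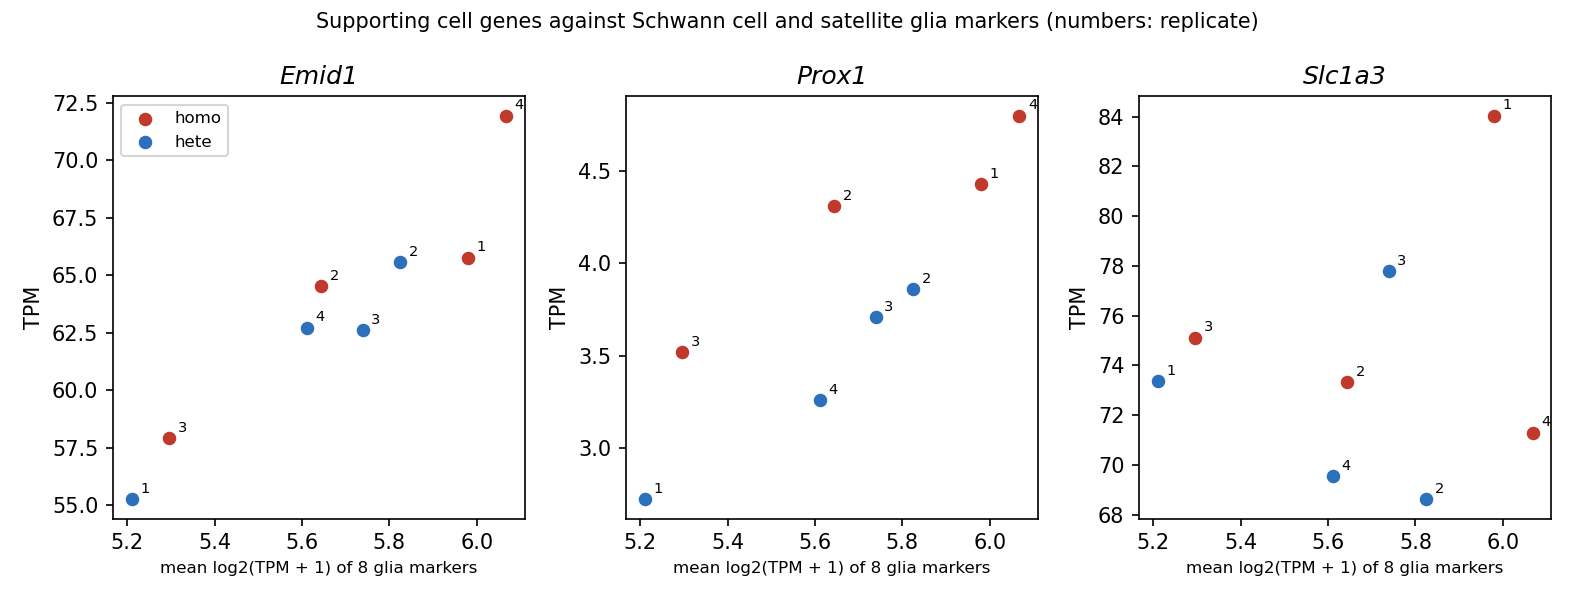
TPM of Emid1, Prox1 and Slc1a3 (vertical axes, which do not start at 0) against the mean log2(TPM + 1) of 8 Schwann cell and satellite glia markers (horizontal axes) in the homo and hete libraries, with replicate numbers. Pearson's r is 0.95 for Emid1 (adjusted exact permutation p = 0.0179), 0.85 for Prox1 (adjusted p = 0.141) and 0.13 for Slc1a3 (adjusted p = 0.882).

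Sox2 also had a high correlation with the muscle list, which holds little signal. Sox2 had r = 0.914 with it (exact permutation p = 0.00151, adjusted 0.0399; rho = 0.929, p = 0.00223, adjusted 0.0804; r = 0.718 without 2 libraries). Only 3 of 10 muscle markers, Tnnt3, Mylpf and Myl1, passed the mean of 1 TPM, their sum with the rest was 7.05 to 20.03 TPM in homo and 7.86 to 14.19 TPM in hete libraries, and the defining markers Actc1 and Myod1 were listed at 0 in all 8. Myl1, a myosin light chain, was listed at 0 in homo replicate 3, where Sox2 was lowest. Npy ran against hair cell markers, with r = -0.746 (exact permutation p = 0.0273, adjusted 0.283; rho = -0.762, p = 0.0368, adjusted 0.265; r = -0.784 without 2 libraries), and with r = -0.558 when hete replicate 4 was left out. For Npy with hair cell markers, deviations from the group means gave -0.618. The hair cell markers summed to 279 to 389.5 TPM in homo and 385 to 553 TPM in hete libraries.

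The genes most like each member were sought among 13786 other protein-coding genes by Pearson's r of log2(TPM + 1) over the 8 libraries, as a description. Prox1 was closest to Egr2, a factor of myelinating Schwann cells (r = 0.976), and to Ybx3 (0.971). Egr2 is itself in the glia list set against Prox1 above, so this is not a separate relation. Emid1 was closest to Galnt9 (0.988) and Syt11 (0.976). Sox2 was closest to Myl1 (0.933) and Sema4c (0.931), and Rorb to Myorg (0.965) and Zdhhc23 (0.959). Slc1a3 was closest to Pds5b (0.964) and Chmp2b (0.959), and Fabp3 to Nmnat2 (0.911) and Spata2l (0.909). Npy was closest to Snu13, a protein of spliceosomal and nucleolar RNPs (0.954), and Gtf2h3 (0.937), and Matn4 to Tinf2 (0.964) and Prpf6, a splicing factor (0.948). These were picked as the 2 highest of 13786 values over the same 8 points, so no p is given.

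Among other genes of pillar, Deiters and neighbouring supporting cells none passed the adjusted test. Of 14 tested pillar and Deiters cell genes, 0 passed with limma-trend, 2 had an unadjusted p under 0.05, and 10 stood higher in homo (median log2 fold change 0.05). Etv5, a transcription factor downstream of FGF signalling, had 32.5 ± 1.96 TPM in homo and 28.6 ± 2.34 TPM in hete libraries (SD, n = 4 each; log2 change 0.18 with SE 0.08; adjusted p = 0.814 by limma-trend). Hey2, a transcription factor of pillar cells, stood at 20.2 ± 0.63 TPM in homo and 17.8 ± 1.79 TPM in hete libraries (log2 fold change 0.18, SE 0.08). Hes5, a Notch effector of Deiters cells, stood at 2.60 ± 0.93 TPM in homo and 3.89 ± 0.95 TPM in hete libraries (log2 fold change -0.46, SE 0.20). Fgfr3, the FGF receptor of pillar and Deiters cells, had 54.18, 56.06, 49.82 and 42.37 TPM in homo libraries, against 37.39, 43.68, 45.94 and 58.62 TPM in hete libraries, and is named after its values were seen. Its groups overlapped (log2 change 0.13 with SE 0.13; adjusted p = 0.918 by limma-trend). Of 18 tested genes of other supporting cells, none passed, 3 had an unadjusted p under 0.05, and 12 stood higher (median 0.04). The groups did not overlap for 2 of the 18, Jag1, a Notch ligand on chromosome 2, and Tectb, a tectorial membrane protein. Over all tested genes 3.99% did not overlap and 6.05% had an unadjusted p under 0.05. Jag1 had 52.05 ± 2.53 TPM in homo and 43.96 ± 3.75 TPM in hete libraries (adjusted p = 0.684 by limma-trend), and Tectb 4726 ± 183 TPM in homo and 4078 ± 211 TPM in hete libraries (adjusted p = 0.686). Fst, the activin antagonist follistatin, had a log2 fold change of 0.26 (SE 0.12).

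No relative of the transcription factors passed the adjusted test either. Of 9 tested SOX relatives 2 stood higher and 7 lower (median log2 fold change -0.05), with Sox4 at 79.4 ± 2.77 TPM in homo and 86.5 ± 5.51 TPM in hete libraries (log2 change -0.12 with SE 0.06; adjusted p = 0.87 by limma-trend). Sox21, a SOX factor of supporting cells, had a log2 fold change of 0.17 (SE 0.11) and Sox5 one of 0.10 (SE 0.10). Of 7 tested PROX and ROR relatives 5 stood higher (median 0.12), beside 56.3% of all tested genes. An unadjusted p under 0.05 by limma-trend was found for 2, beside 6.05% of all tested genes. Beside 3.99% of all tested genes, the groups did not overlap for these 2 relatives. Among them, Nr2f1, a nuclear receptor that patterns the cochlear epithelium, had 131 ± 1.83 TPM in homo and 114 ± 9.18 TPM in hete libraries (log2 change 0.20 with SE 0.07; adjusted p = 0.692 by limma-trend). Nr1d2, a receptor that binds ROR elements, had a log2 fold change of -0.14 (SE 0.07).

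The partners of the transporter and lipid carrier genes held no gene past the adjusted test. Of 8 tested genes of glutamate transport and recycling 5 stood higher and 3 lower (median log2 fold change 0.03). The transporter gene Slc1a1 stood at a log2 fold change of 0.20 (SE 0.19) and Slc38a5 at 0.10 (SE 0.12). Slc1a2, the glial glutamate transporter GLT-1, named after its values were seen, stood at 16.39 to 21.84 TPM in homo and 17.73 to 19.87 TPM in hete libraries, below Slc1a3 in all 8. Of 12 listed relatives of Fabp3, 6 passed the mean of 1 TPM, 3 higher and 3 lower (median 0.05). Beside 6.05% of all tested genes, 1 of these 6 had an unadjusted p under 0.05 by limma-trend. That was Rbp7, a retinol binding protein, with 1.05, 2.02, 1.38 and 3.80 TPM in homo libraries, against 3.96, 2.52, 5.79 and 5.76 TPM in hete libraries (log2 change -0.88 with SE 0.30; adjusted p = 0.71 by limma-trend). Crabp1 and Crabp2, carriers of retinoic acid, stood at 1.04 (SE 0.59) and 0.19 (SE 0.14) in log2 fold change, and Crabp1 ranged from 0.18 to 7.67 TPM among hete libraries.

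The receptors for neuropeptide Y were at or near 0 in this tissue, and no relative of the matrix genes passed the test. Npy1r reached 0.50 to 0.83 TPM in homo and 0.74 to 1.14 TPM in hete libraries, Npy2r, Npy4r and Npy6r stayed at or below 0.37 TPM, and Npy5r was listed at 0 in all 8. Of 9 listed genes of this group 2 were tested and both stood higher, with Pam, the enzyme that amidates peptides such as neuropeptide Y, at a log2 fold change of 0.07 (SE 0.07; adjusted p = 0.909 by limma-trend) and Dpp4, a peptidase that trims it, at 0.14 (SE 0.13; adjusted p = 0.911). Of 7 tested matrilin and EMI-domain genes 4 stood higher (median log2 fold change 0.04). Matn2 had 8.25 ± 0.32 TPM in homo and 7.11 ± 1.05 TPM in hete libraries (log2 change 0.20 with SE 0.11; adjusted p = 0.87 by limma-trend), and Col26a1, the paralogue of Emid1, had 96.1 ± 7.12 TPM in homo and 86.9 ± 10.4 TPM in hete libraries (log2 change 0.15 with SE 0.09; adjusted p = 0.87). Emilin3, on chromosome 2, had 15.87, 16.88, 14.07 and 18.15 TPM in homo libraries, against 15.45, 16.70, 18.61 and 41.11 TPM in hete libraries, where hete replicate 4 alone was high.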

How the data were processed

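The authors deposited TPM values for 78317 genes in 8 libraries, rounded to 2 decimals, each library adding up to 1000000 within 1. Per the submitters' processing notes, fastp, HISAT2, StringTie, RSEM and DESeq2 and the build GRCm39 were used, with no roles or versions. Genes averaging 1 TPM or more were taken to log2(TPM + 1) and modelled in limma 3.58.1 (R 4.3.3; eBayes, trend and robust), genotype as the only term, and p-values were adjusted by Benjamini-Hochberg over all 17811 tested genes. The steps were tested on simulated data. The pseudocount understates changes of low genes such as Prox1 and Rorb, and rounding limits their precision. Single relations used exact permutation tests (Python 3.11.15, numpy 2.4.6). Chromosomes came from GENCODE M21 by Ensembl ID. The members and lists were chosen with earlier results of these data known. Named genes are the members, Dnajc17, Sox2ot, Prox1os, the 3 genes with the smallest p of each related list, and the 2 genes most like each member. Some genes that this rule names are not reported here. Marker-list correlations were added after the data were seen. The deposited splicing totals and gene ontology table were not used.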

Additional observations from a re-analysis of the deposited data

Results flagged for a closer look

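Rorb in hete replicate 4, at 3.97 TPM, stood far from the other hete libraries, which had 2.05 to 2.21 TPM. The gap was 0.917 of the range of the group, above the 95% critical value of Dixon's test for 4 samples. It was the only case among 18 sets of 4 libraries, 8 members and Dnajc17 in each group, and chance gives such a case in about 5% of sets.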

How the results depend on the processing

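No member passed an adjusted p of 0.05 under any alternative. Matn4 turned sign with quantile normalization (-0.018), and the left-out-library range was -0.0778 to 0.128 for Matn4, -0.151 to 0.106 for Rorb, -0.0136 to 0.237 for Dnajc17 and -0.115 to 0.263 for Prox1os. The other 6 members, Sox2ot and the genes of the related lists picked by smallest p kept their direction under the alternatives that tested them. Of these alternatives, the filters on low values, the replicate block and eBayes without the robust option cannot change a fold change. No alternative was run for the genes most like each member or for those named after their values were seen. The cause of these turns was not tested. Prox1 and Rorb do not reach 5 TPM in 4 libraries and were not tested under that filter. The count of changed genes over the whole table was 2, and was 1 with no filter on low values, 1 with the replicate block, 1 to 5 with a library left out (1 without homo replicate 2 or 3 or hete replicate 1, 4 without homo replicate 1 or 4, 5 without hete replicate 3), and 0 with exact permutation tests, whose smallest p of 0.0286 cannot pass the adjustment. Over all tested genes same-numbered libraries did not deviate together (r of -0.08, -0.03, 0.05 and 0.01 for numbers 1 to 4). An r over all genes cannot tell whether libraries were paired by number. The replicate block cannot change the fold changes, because each number occurs once in each group. What it changes is the SE. With the block the SE fell from 0.16 to 0.07 for Matn4, from 0.19 to 0.12 for Npy and from 0.15 to 0.10 for Fabp3. It rose for Sox2, Prox1, Rorb and Emid1 and was 0.07 both ways for Slc1a3. No adjusted p of a member by limma-trend was under 0.88 with the block. The depth of each library is unknown, which limits what can be said of Prox1 and Rorb at 1.68 to 4.80 TPM.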

Other observations

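Among gene ontology terms in the annotation columns of the deposited expression table, inner ear development was listed for Prox1 and Sox2, a term that 46 of the 17811 tested genes (0.258%) carried, and regulation of circadian rhythm for Prox1 and Rorb, carried by 47. Neuron projection was listed for Npy and Slc1a3, and extracellular space for Fabp3 and Npy.

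Greater epithelial ridge markers, genes of the tall cells next to the inner border cells, held 2473 to 2778 TPM in homo and 2266 to 2619 TPM in hete libraries as a sum of 8 genes, with Epyc the highest. The list also holds Crabp1, a relative of Fabp3, and Stmn2, which neurons express too. Of the 8 genes 3 had an unadjusted p under 0.05 by limma-trend, beside 6.05% of all tested genes, and none an adjusted one. The groups did not overlap for 2 of the 8, beside 3.99% of all tested genes. In the mean log2(TPM + 1) of these 8 genes the homo libraries, at 6.42 to 6.67, all lay above the hete libraries, at 5.92 to 6.34. Of the 9 marker lists only this mean kept the groups apart, which was not tested. Of the members Prox1 had the highest correlation with it (r = 0.66; exact permutation p = 0.0733, adjusted over 72 relations 0.465; rho = 0.595, p = 0.132, adjusted 0.733; r = 0.501 without the 2 libraries farthest from the median), and deviations from the group means gave 0.261.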
